A study of Drosophila melanogaster with 6 samples.

Results

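Of the 17433 genes in the count table, 10 were taken by symbol as voltage-gated ion channel genes. They were 8 potassium channel genes (*Sh*, *Shab*, *Shal*, *Shaw*, *KCNQ*, *eag*, *sei* and *slo*), the sodium channel gene *para* and the calcium channel gene *cac*. All 10 were in the table and all 10 passed the filter on low counts. Nuclear RNA was measured in eye imaginal discs of late *Drosophila melanogaster* larvae of the third instar, in 3 GMR>Rh-1G69D samples (GMR-GAL4 with uas-Rh-1G69D and uas-EGFP::Msp300-KASH) and in 3 control samples, labelled WT (GMR-GAL4 with uas-EGFP::Msp300-KASH alone). GMR-GAL4 is active in eye disc cells behind the morphogenetic furrow, the front of differentiation that crosses the disc, and Rh-1G69D is a misfolding form of Rhodopsin-1 that stresses the endoplasmic reticulum (ER). Both genotypes carry the driver and the EGFP tag of the nuclear envelope, by which nuclei were pulled down, so both express a foreign membrane protein. Only Rh-1G69D differs between them by design. Discs of many larvae were pooled for each sample, with separate pools for the replicates, and the sex of the larvae is not given.

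Voltage-gated channels open when the membrane potential changes. Sodium channels carry the rising phase of the action potential, potassium channels end it and set the resting state, and calcium channels at nerve endings couple it to transmitter release. Photoreceptors of the adult fly rely on potassium currents, of which those through Shaker and Shab are the best known. In the larval disc the photoreceptors are still being specified and are sending axons to the brain.

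Libraries held 21773452 to 30884519 counts on genes, of which 7.70% to 20.5% were on ribosomal RNA genes. The gene that encodes Rhodopsin-1, *ninaE*, had 3840, 3987 and 5115 counts in the GMR>Rh-1G69D libraries, against 63, 1222 and 65 counts in the controls, so control replicate 2 stood apart from the other controls. Levels are given as CPM, counts scaled to library size. Control replicate 3 stood apart in another way. Larval fat body markers summed to 857 CPM there, against 33.6 and 40.7 CPM in the other controls and 11.8 to 59.8 CPM in the GMR>Rh-1G69D libraries. Over all tested genes the log2 CPM of this library had Pearson correlations of 0.933, 0.946 and 0.956 with GMR>Rh-1G69D replicates 1, 2 and 3, against 0.944 and 0.941 with control replicates 1 and 2. No marker of the 7 lists examined was at 0 in every library, and the nuclei held the photoreceptor genes *gl* and *elav* in both genotypes. Their mean levels were not equal. The means were 91.5 CPM (*gl*) and 1108 CPM (*elav*) in GMR>Rh-1G69D libraries, against 292 and 1665 CPM in controls. For *elav*, control replicate 3 (1191 CPM) lay close to GMR>Rh-1G69D replicates 2 and 3 (1176 and 1157 CPM). The library size was TMM-normalized, and fold changes are log2 values of GMR>Rh-1G69D over control.

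**Figure D1:**
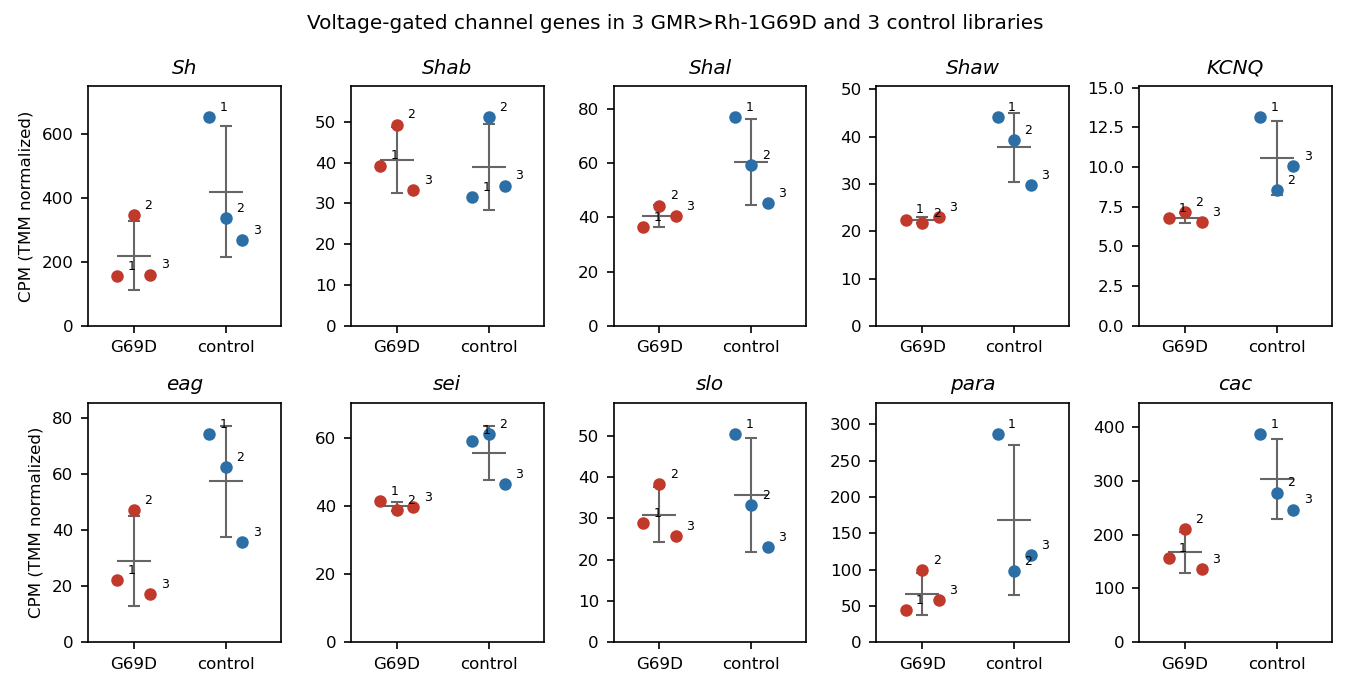
Level of each channel gene in CPM (vertical axis, from 0, its own scale for each gene) in the 3 GMR>Rh-1G69D libraries (red, left) and the 3 control libraries (blue, right). Numbers are replicate numbers, long ticks are means and bars are SDs over 3 libraries. Control replicate 1 was the highest library for 8 of the 10 genes, and the genotypes were fully separated for *Shal*, *Shaw*, *KCNQ*, *sei* and *cac*.

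Channel RNA was lower in GMR>Rh-1G69D nuclei for 9 of the 10 genes, and the median of their log2 fold changes was -0.69, against 0.04 over all 11818 genes tested. A log2 fold change below 0 was found for 47.5% of all tested genes. By edgeR's quasi-likelihood test with Benjamini-Hochberg adjustment over all tested genes, 1 of the 10 channel genes fell at an adjusted p under 0.05, where 3.72% of all tested genes did, and 0 rose, where 1.24% did (4.96% in either direction). The gene that fell was *cac*. Before adjustment, 7 genes were lower at p under 0.05, where 12.8% of tested genes were, and 0 were higher, where 11.0% were. DESeq2 called 4 of the 10 lower (8.47% of its tested genes) and 0 higher. For 5 genes all GMR>Rh-1G69D libraries lay below all controls, which held for 14.6% of tested genes, and for 0 they lay above all controls (13.6% of tested genes). Without control replicate 3 there were 6 genes that fell, where 9.82% of the genes then tested did. In such bulk samples fewer cells of a type and less RNA per cell cannot be told apart.

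*Sh* encodes Shaker, the founding voltage-gated potassium channel, which gives a fast inactivating current. It lies on the minus strand of chromosome X of dm6 from 17924307 to 18063247, a span of 138941 bases with 22552 exonic bases. *Sh* had 154, 345 and 160 CPM in the GMR>Rh-1G69D libraries, against 652, 337 and 269 CPM in the controls. The genotypes overlapped, because GMR>Rh-1G69D replicate 2 lay above control replicates 2 and 3. The fitted log2 change was -0.93 (± 0.36 SE, 95% confidence interval -1.70 to -0.16, edgeR adjusted p = 0.143). Without GMR>Rh-1G69D replicate 2 it was -1.41 (adjusted p = 0.0488), and without control replicate 3 it was -1.16 (adjusted p = 0.0414). Without control replicate 1 it was -0.46 (adjusted p = 0.524), and without GMR>Rh-1G69D replicate 1 or 3 it was -0.71 (0.376) or -0.73 (0.398).

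*Shab* encodes a delayed rectifier that turns on slowly and hardly inactivates, and it was the exception among the 10. It had 39.2, 49.3 and 33.2 CPM in the GMR>Rh-1G69D libraries, against 31.5, 51.1 and 34.3 CPM in the controls, with full overlap. The log2 fold change was 0.06 (± 0.26 SE, interval -0.50 to 0.61, edgeR adjusted p = 0.912), and its sign turned when control replicate 1, control replicate 3 or GMR>Rh-1G69D replicate 2 was left out. Control replicate 1, the highest library for 8 of the other genes, was the lowest library for *Shab*. The deviations of *Shab* over the 6 libraries had a Pearson correlation of -0.04 with the mean of the other 9 genes, while those of the other genes ranged from 0.72 (*slo*) to 0.98 (*cac*). These correlations share the same 6 libraries and their depth and are given as a description. *Shab* lies on the plus strand of chromosome 3L from 2895017 to 2959579, with 11359 exonic bases.

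*Shal* encodes a channel of cell bodies and dendrites with a fast inactivating current, and *Shaw* one that inactivates little. *Shal* had 36.4, 44.3 and 40.5 CPM in the GMR>Rh-1G69D libraries, against 76.8, 59.1 and 45.1 CPM in the controls. *Shaw* had 22.4, 21.7 and 23.0 CPM in the GMR>Rh-1G69D libraries, against 44.1, 39.2 and 29.8 CPM in the controls. For both genes every GMR>Rh-1G69D library lay below every control, and the controls were far more spread out than the GMR>Rh-1G69D libraries. The log2 fold change was -0.58 for *Shal* (± 0.24 SE, edgeR adjusted p = 0.164) and -0.75 for *Shaw* (± 0.24 SE, edgeR adjusted p = 0.0884), so neither passed. Both passed without control replicate 3, with an adjusted p of 0.0285 for *Shal* and 0.0173 for *Shaw*, and *Shaw* also passed with DESeq2 (adjusted p = 0.0268). Without control replicate 1 the values were smaller, at -0.37 for *Shal* (adjusted p = 0.490) and -0.62 for *Shaw* (adjusted p = 0.272). These are the short members of the Shaker family. *Shal* lies on chromosome 3L from 19566851 to 19584568 (4606 exonic bases) and *Shaw* on chromosome 2L from 3718185 to 3729145 (5000 exonic bases).

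*KCNQ*, which encodes a slow channel of the M-current type, was the least abundant of the 10, with 152 to 178 counts in the GMR>Rh-1G69D libraries and 258 to 295 in the controls. It had 6.77, 7.14 and 6.52 CPM in the GMR>Rh-1G69D libraries, against 13.1, 8.56 and 10.1 CPM in the controls. The genotypes did not overlap, but at this depth the log2 fold change of -0.63 had an SE of 0.34 and did not pass (edgeR adjusted p = 0.281). *KCNQ* lies on chromosome 2R from 10145897 to 10192394, and 1063 of its 3875 exonic bases are shared with genes on the other strand. The strand setting of the counting is not stated in the sources used here, so reads of those genes may be counted in it.

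*eag* and *sei* encode channels of the ether-a-go-go family, *sei* being the fly relative of the ERG channel of the vertebrate heart. *eag* had 22.3, 47.2 and 17.3 CPM in the GMR>Rh-1G69D libraries, against 74.5, 62.4 and 35.7 CPM in the controls. *sei* had 41.4, 38.8 and 39.7 CPM in the GMR>Rh-1G69D libraries, against 59.1, 61.2 and 46.5 CPM in the controls. The genotypes overlapped for *eag*, through GMR>Rh-1G69D replicate 2 and control replicate 3, and did not for *sei*. The log2 fold change of *eag* was -0.99 (± 0.37 SE, edgeR adjusted p = 0.132), and that of *sei* was -0.48 (± 0.21 SE, edgeR adjusted p = 0.190). For *eag*, the adjusted p was 0.0313 without GMR>Rh-1G69D replicate 2, 0.0340 without control replicate 3 and 0.0487 with DESeq2. With the other libraries left out *eag* was further from the threshold, at -0.71 without GMR>Rh-1G69D replicate 3 (adjusted p = 0.385), -0.81 without GMR>Rh-1G69D replicate 1 (0.338), -0.76 without control replicate 1 (0.4003) and -0.91 without control replicate 2 (0.314). *sei* passed under 0 of the 18 alternatives. It is the shortest of the 10, with a span of 5625 bases on chromosome 2R from 24047411 to 24053035, and 478 of its 3278 exonic bases are shared with genes on the other strand. *eag* spans 54513 bases of chromosome X from 14955477 to 15009989.

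*slo* encodes the large-conductance potassium channel that is opened by both voltage and calcium. It had 28.9, 38.2 and 25.6 CPM in the GMR>Rh-1G69D libraries, against 50.4, 33.2 and 23.1 CPM in the controls. The lowest of all 6 libraries was control replicate 3, and the genotypes overlapped. The log2 fold change was -0.20 (± 0.30 SE, interval -0.84 to 0.44, edgeR adjusted p = 0.711), and its sign turned with a correction for gene length (0.33) or gene span (0.34) and without control replicate 1 (0.14). *slo* occupies 24662491 to 24711595 of chromosome 3R (plus strand), with 10152 exonic bases.

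*para* encodes the fly's main voltage-gated sodium channel, on which action potentials depend. It had 44.1, 99.6 and 57.8 CPM in the GMR>Rh-1G69D libraries, against 287, 98.0 and 120 CPM in the controls. Its log2 fold change of -1.32 had the largest size of the 10 (± 0.38 SE, interval -2.16 to -0.49), but the genotypes overlapped and it did not pass (edgeR adjusted p = 0.0691). The overlap came from GMR>Rh-1G69D replicate 2, which lay above control replicate 2 and well above the other GMR>Rh-1G69D libraries. Control replicate 1 held far more than the other controls. Without that library the log2 fold change was -0.70 (adjusted p = 0.318). Without control replicate 3 it was -1.51 (adjusted p = 0.0259), without GMR>Rh-1G69D replicate 2 it was -1.72 (adjusted p = 0.0444), and with DESeq2 it was -1.36 (adjusted p = 0.00589). Without control replicate 2 it was -1.58 (edgeR adjusted p = 0.0508), and without GMR>Rh-1G69D replicate 1 or 3 it was -1.07 (0.225) or -1.21 (0.224). Of 18 alternatives *para* passed in 5. *para* lies on chromosome X from 16455027 to 16533096 and has 16309 exonic bases.

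*cac* encodes the pore subunit of the calcium channel that triggers transmitter release at fly synapses. It had 157, 210 and 135 CPM in the GMR>Rh-1G69D libraries, against 387, 278 and 246 CPM in the controls, without overlap. Mean levels were 167 ± 38.2 CPM (GMR>Rh-1G69D) and 303 ± 73.9 CPM (controls; SD, n = 3 each). *cac* fell, by a log2 change of -0.86 (± 0.23 SE, interval -1.35 to -0.36, edgeR adjusted p = 0.0499), just inside the threshold. The call was lost without control replicate 1 (adjusted p = 0.183), control replicate 2 (0.116), GMR>Rh-1G69D replicate 1 (0.192) or GMR>Rh-1G69D replicate 3 (0.229). Of 18 alternatives *cac* passed in 8, with adjusted p-values between 0.00898 (DESeq2) and 0.326. *cac* lies on the minus strand of chromosome X from 11931280 to 11985087, with 11923 exonic bases. Outside *KCNQ* and *sei*, the channel genes shared no exonic bases with another annotated gene.

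Levels can be set side by side between genes only per length, as FPKM, which the authors deposited. In the GMR>Rh-1G69D libraries *cac* was highest, with 14.5 ± 3.56 FPKM, and in the controls as well, with 24.5 ± 4.64 FPKM (SD, n = 3 each). *KCNQ* was lowest, with 1.82 ± 0.116 FPKM in GMR>Rh-1G69D libraries and 2.62 ± 0.337 FPKM in controls (SD, n = 3 each). Below *cac* came *sei* (12.6 FPKM in GMR>Rh-1G69D libraries, 16.5 FPKM in controls), *Sh* (10.1 and 17.7 FPKM in the same order) and *Shal* (9.05 and 12.6 FPKM). In the GMR>Rh-1G69D libraries the replicate range of *Sh* overlapped those of *cac*, *sei* and *Shal*, and that of *cac* overlapped *sei*. In the controls *cac* overlapped *Sh* and *sei*, and *Sh*, *sei* and *Shal* overlapped each other, so the order of these neighbours was within the spread. *para*, at 4.26 FPKM in GMR>Rh-1G69D libraries and 9.67 FPKM in controls, had the widest spread of the controls, with a coefficient of variation of 0.530. In the GMR>Rh-1G69D libraries the spread was widest for *eag* (0.569), *Sh* (0.509) and *para* (0.444) and narrowest for *Shaw* (0.0129) and *sei* (0.0374).

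The libraries differed in step across the channel genes. Averaged over the 10 genes as the deviation of log2 CPM from each gene's own mean, the level was -0.47, 0.01 and -0.52 in GMR>Rh-1G69D replicates 1, 2 and 3, against 0.71, 0.29 and -0.02 in control replicates 1, 2 and 3. GMR>Rh-1G69D replicate 2 therefore stood slightly above control replicate 3, while the other libraries were separated by genotype. A profile over 6 libraries is shared by many genes. Over 7358 other genes whose log2 CPM averaged 3 or more, the highest Pearson correlations with this profile were those of *dysc* (0.998), *sbb* (0.995), *Mur2B* (0.993), *Ptp4E* (0.992) and *upSET* (0.992). *dysc* encodes a protein that acts on the Slowpoke channel, and it fell (log2 fold change -1.10, edgeR adjusted p = 0.0457). It was picked by its likeness to a profile that was itself lower in GMR>Rh-1G69D libraries, so its fall is no separate support. The other 4 of these genes did not pass.

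**Figure D2:**
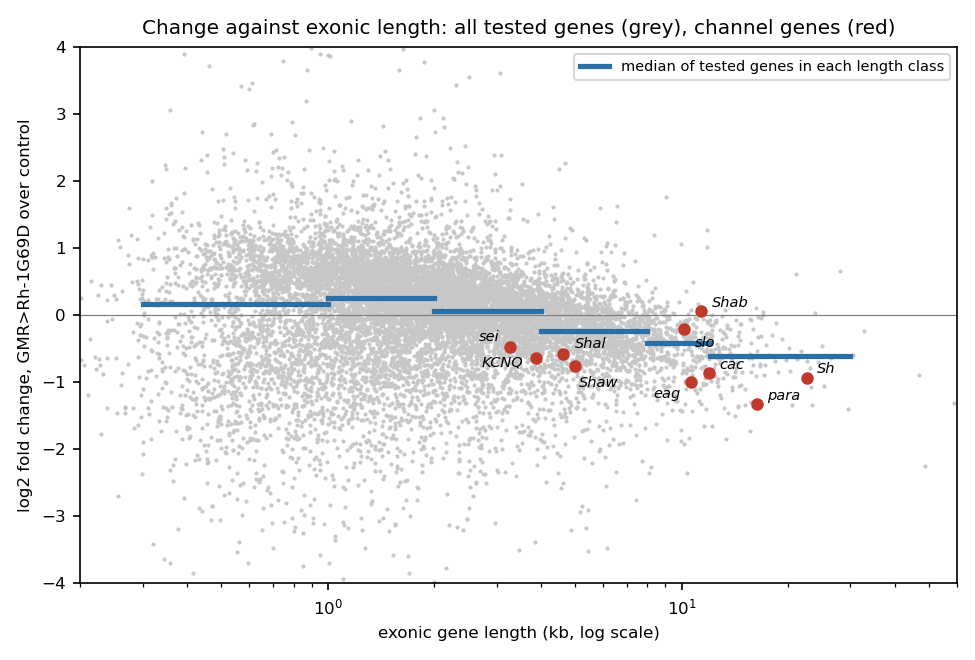
Log2 fold change of GMR>Rh-1G69D over control (vertical axis) against exonic gene length in kb (horizontal axis, log scale) for 11546 of the 11818 tested genes (grey), the others lying outside the axes. Blue bars are medians of length classes, which run down to -0.61 for genes of 12 kb and more, and the 10 channel genes (red) lie in the 4 longer classes, 7 of them at or beyond -0.58.

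Gene length has to be kept in view for these genes, because long genes as a whole were lower in GMR>Rh-1G69D nuclei. Among tested genes with 1 to 2 kb of exonic sequence the median log2 fold change was 0.26 (3659 genes), and with 12 kb and more it was -0.61 (149 genes, 95.3% of them below 0). The share that fell at an adjusted p under 0.05 was 1.61% in the first class and 16.8% in the second. *Sh* and *para* belong to the class of 12 kb and more, and *Shab*, *eag*, *slo* and *cac* to that of 8 to 12 kb, where the median was -0.42 and 14.6% of 335 genes fell. By exonic length *Sh* was longer than 99.8% of tested genes, *para* than 99.6% and *cac* than 98.7%, while *sei* was longer than 75.3%. By the span from start to end the order was similar, except for *KCNQ*, whose 3875 exonic bases lie in a span of 46498 bases. Genes that span 50 kb and more, which include *Sh*, *Shab*, *eag*, *para* and *cac*, showed a median of -0.61, and 22.6% of 305 such genes fell.

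Libraries of the same genotype also differed with gene length. For genes with 12 kb and more of exonic sequence, the median deviation from the gene mean was -0.34, -0.11 and -0.42 in GMR>Rh-1G69D replicates 1, 2 and 3, against 0.61, 0.30 and -0.02 in control replicates 1, 2 and 3 (log2 CPM). As for the channel genes, control replicate 1 was highest and control replicate 2 second, and control replicate 3 lay close to GMR>Rh-1G69D replicate 2. The part of this length dependence in the channel results was not tested beyond the corrections that follow.

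**Figure D3:**
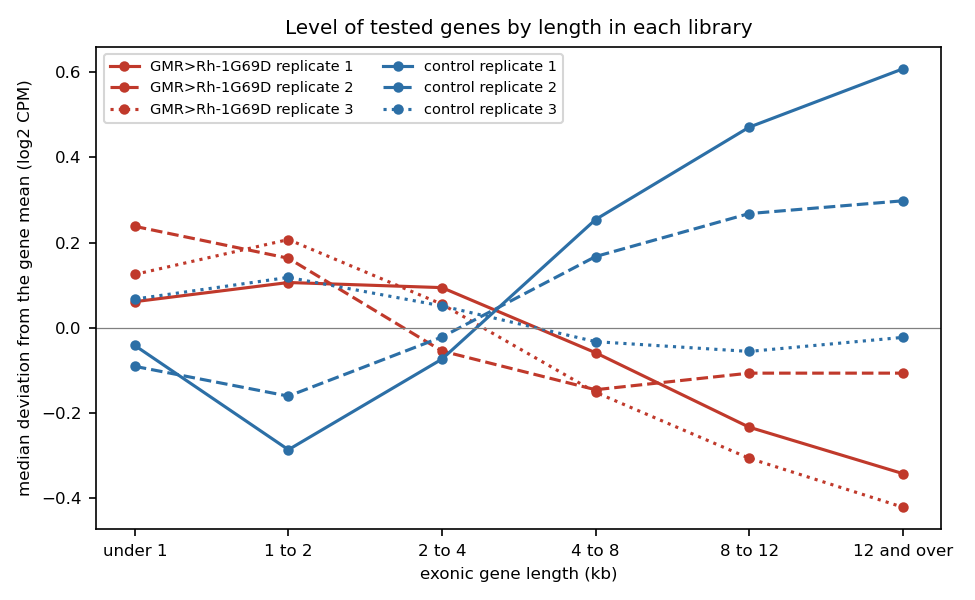
Median deviation of tested genes from their own mean over the 6 libraries (vertical axis, log2 CPM) in 6 classes of exonic length (horizontal axis, kb), for each GMR>Rh-1G69D library (red) and control library (blue). The lines fan out with length, to 0.61 in control replicate 1 and -0.42 in GMR>Rh-1G69D replicate 3 at 12 kb and more, and control replicate 3 stays near 0.

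When a smooth fit on log2 exonic length was subtracted in each library, the changes of the longest channel genes shrank. *Sh* came to -0.14 (adjusted p = 0.734), *cac* to -0.30 (0.262), *eag* to -0.47 (0.374) and *para* to -0.62 (0.230), each from edgeR's test. *Shaw* (-0.52), *KCNQ* (-0.51), *sei* (-0.43) and *Shal* (-0.37), which have fewer exonic bases, moved less. *KCNQ* moved more with the correction by span, to -0.15 (adjusted p = 0.821). *Shab* came to 0.55 (adjusted p = 0.223) and *slo* to 0.33 (adjusted p = 0.411), so the direction of *slo* turned. After this correction the median of the 10 genes was -0.40, against 0.04 over all tested genes, and 8 of the 10 remained below 0, where 47.1% of tested genes were. Of the 10 genes 0 passed the threshold, where 3.42% of tested genes fell, and with the span in place of the exonic length 0 passed as well (3.14% of tested genes fell), with a median of -0.30. Before adjustment, 2 genes were lower and 1 was higher at p under 0.05 with the correction by exonic length, where 11.8% of tested genes were lower and 10.2% higher. With that by span 4 were lower and 1 was higher, where 11.8% of tested genes were lower and 21.8% were past this level in either direction. The lowest adjusted p after the correction by exonic length was 0.168, for *Shaw*.

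**Figure D4:**
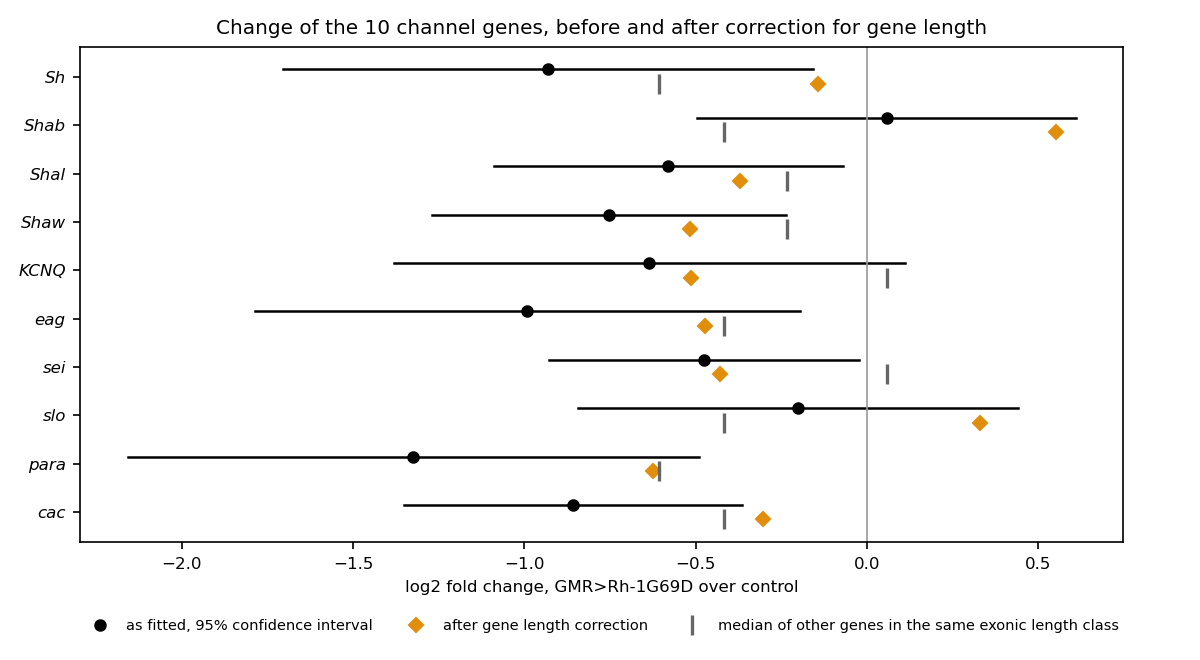
Log2 fold change of the 10 channel genes, GMR>Rh-1G69D over control, as fitted with edgeR (black, with 95% confidence intervals) and after correction for exonic length (orange). Grey ticks are the median of the other tested genes in the same class of exonic length. 8 genes lay below their tick as fitted, and *Shab* and *slo* lay above it.

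Among the other genes of its own length class, *para* had a lower log2 fold change than all but 9.46% of 148 genes. *KCNQ*, *eag*, *Shaw*, *cac*, *sei*, *Sh* and *Shal* lay between the 13.5 and 22.2 percentiles of their classes, while *slo* lay at 75.4% and *Shab* at 91.9%. These places are a description, since the genes share the same libraries. A ratio within a library does not depend on its scaling. *eag* and *Shab* have nearly equal exonic length (10636 and 11359 bases), and their log2 ratio of CPM, *eag* over *Shab*, was -0.82, -0.06 and -0.94 in GMR>Rh-1G69D libraries, against 1.24, 0.29 and 0.06 in controls. For *cac* over *slo* (11923 and 10152 bases) it was 2.44, 2.45 and 2.40 in GMR>Rh-1G69D libraries, against 2.94, 3.06 and 3.41 in controls. Neither ratio overlapped between the genotypes. These pairs were chosen after their values were seen, and the divisors *Shab* and *slo* are the members with the least fall. The separation is therefore a description and no support.

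Other genes of the same machinery were read from a list of 29 related channel and accessory genes, of which 28 had enough counts to test. Of these, 24 had a log2 fold change below 0 (47.5% of all tested genes did), with a median of -0.54, 6 fell (3.72% of all tested genes did) and 0 rose (1.24%). The share of tested genes below 0 went from 34.7% at 1 to 2 kb of exonic sequence to 95.3% at 12 kb and more. At an unadjusted p under 0.05, 12 were lower and 0 higher by edgeR (12.8% and 11.0% of all tested genes), and 12 were lower and 0 higher by DESeq2 (14.7% and 11.6%). After correction for exonic length the median of the list was -0.22, with 17 of 28 below 0 (47.1% of all tested genes), and after that for span it was -0.24, with 18 below 0 (48.1%). Of the 6 that fell, 4 belong to calcium channels. They were *Ca-alpha1T*, the T-type pore subunit, *Ca-beta*, the beta subunit, and *stj* and *CG4587* (annotated as *stol*), both alpha2-delta subunits that bring the pore to the membrane. Only *Ca-alpha1D*, the L-type pore subunit, did not pass of the 5 calcium channel genes listed (log2 fold change -0.39, edgeR adjusted p = 0.333). *na*, the sodium leak channel, and *dysc* completed the 6.

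*Ca-beta* had 100, 105 and 82.3 CPM in the GMR>Rh-1G69D libraries, against 273, 165 and 165 CPM in the controls. *stj* had 85.4, 111 and 75.9 CPM in the GMR>Rh-1G69D libraries, against 253, 203 and 126 CPM in the controls. Both were fully separated, as were the other 4 that fell. Over the 28 tested genes of the list, 9 were fully separated as lower and 1 as higher, where 14.6% and 13.6% of all tested genes were. The log2 fold changes were -1.42 for *CG4587* (adjusted p = 0.0134), -1.39 for *Ca-alpha1T* (0.0171), -1.18 for *na* (0.0201), -1.09 for *stj* (0.0268) and -1.07 for *Ca-beta* (0.0181), all from edgeR's test. After correction for exonic length *CG4587* (-0.89, adjusted p = 0.0361), *Ca-alpha1T* (-0.77, 0.0473) and *stj* (-0.75, 0.0492) still passed, and *na* (-0.78, 0.0602), *Ca-beta* (-0.63, 0.0552) and *dysc* (-0.58, 0.119) did not. Of the 6 calls, 0 held when control replicate 1, GMR>Rh-1G69D replicate 1 or GMR>Rh-1G69D replicate 3 was left out.

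The sodium and cation channel genes of the list (10 tested) all had values below 0, from -1.18 for *na* to -0.06 for *NaCP60E*, a relative of *para*. The potassium channel genes (13 tested) were mixed, with 9 below 0 and a median of -0.25. Of all tested genes 47.5% were below 0. The most abundant gene of the list, *qvr*, encodes a small surface protein that acts on Shaker, and it had 33.5 ± 5.09 FPKM in GMR>Rh-1G69D libraries and 41.5 ± 9.65 FPKM in controls (SD, n = 3 each). At a log2 change of -0.39 it did not pass (edgeR adjusted p = 0.251). *NaCP60E* has 15626 exonic bases, and after the length correction it came to 0.60 and passed as higher (adjusted p = 0.0485), while with the correction by span it did not (adjusted p = 0.239).

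**Figure D5:**
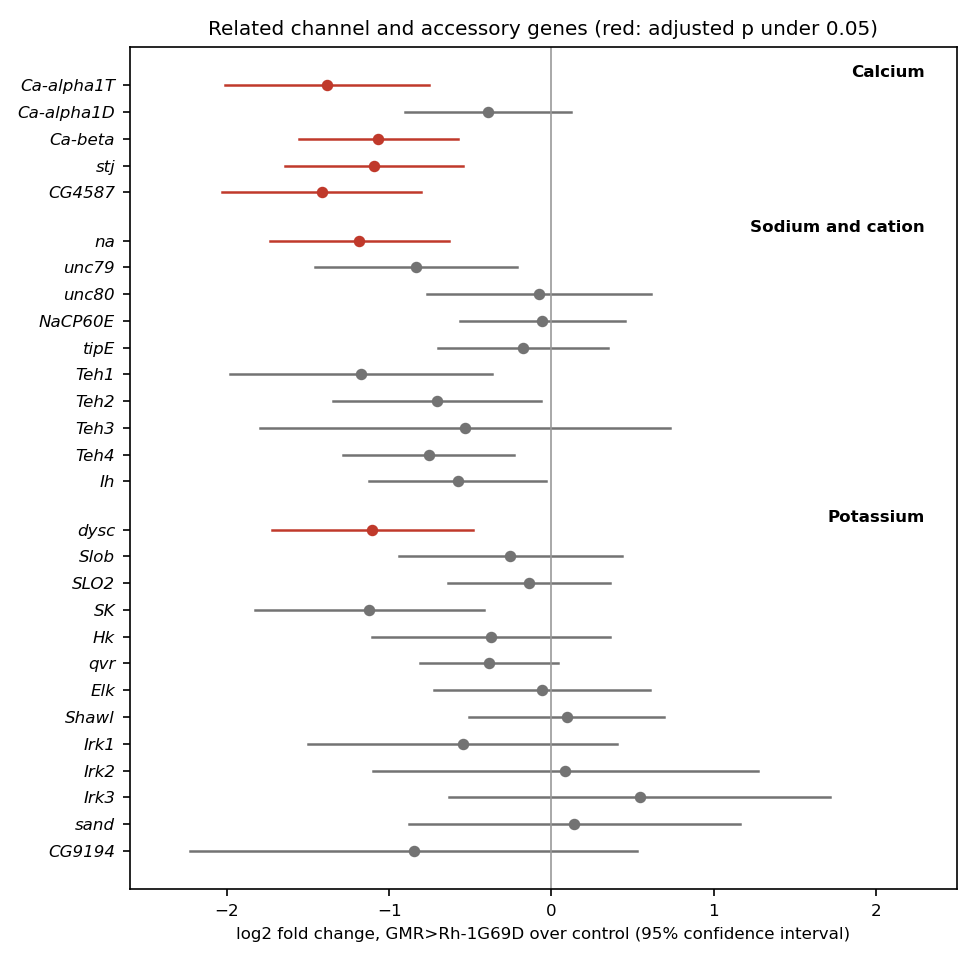
Log2 fold change, GMR>Rh-1G69D over control, with 95% confidence intervals, of the 28 tested channel and accessory genes, grouped by ion. The 6 genes at an adjusted p under 0.05 (red) have values from -1.42 to -1.07, and 4 of them are calcium channel genes.

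Markers of photoreceptors and neurons moved with the channel genes. Of 16 such markers, 16 had a value below 0 (47.5% of all tested genes did), with a median of -1.05. At an adjusted p under 0.05, 8 fell and 0 rose (3.72% and 1.24% of all tested genes). After correction for exonic length 14 of the 16 were below 0 (47.1% of all tested genes), with a median of -0.79, and 7 fell (3.42%). Single markers moved unequally with this correction. *gl* moved from -1.67 (adjusted p = 0.00141) to -1.61 (0.000867), both from edgeR's test. *futsch* moved from -1.34 (edgeR adjusted p = 0.0124) to -0.55 (0.0694) and so lost its call. *elav* moved from -0.59 to -0.04 (edgeR adjusted p = 0.902), and *fne* (0.03) and *pros* (0.29) turned above 0. The summed level of the 16 markers was 5745, 8946 and 6704 CPM in GMR>Rh-1G69D libraries, against 14643, 12036 and 9526 CPM in controls. GMR>Rh-1G69D replicate 2 again stood closest to the controls. Lists for other cell types gave mixed values. The 8 glial markers had a median of 0.15 and summed to 529 to 653 CPM in GMR>Rh-1G69D libraries, against 644 to 843 CPM in controls. The 6 hemocyte markers summed to 240 to 275 CPM in GMR>Rh-1G69D libraries, against 125 to 140 CPM in controls. Of the 6, 1 rose (*Hml*), where 1.24% of all tested genes did. Of the 6 muscle markers 5 were above 0, 3 rose (*Mhc*, *Act57B* and *wupA*) and 1 fell (*sls*), where 1.24% of all tested genes rose and 3.72% fell. They summed to 798 to 1490 CPM in GMR>Rh-1G69D libraries, against 962 to 1678 CPM in controls. *sls* alone held 233, 460 and 315 CPM in GMR>Rh-1G69D libraries, against 1255, 694 and 545 CPM in controls. After correction for exonic length *sls* came to -0.20 (edgeR adjusted p = 0.511), and the median of the 6 was 0.92. The 6 fat body markers had a median of -2.62, with 0 called (4.96% of all tested genes were). Without control replicate 3 the median of these markers was 0.42, so the direction rested on that library. The 8 markers of antennal and undifferentiated cells had a median of -0.22, and 2 fell (*dan* and *salm*), where 3.72% of all tested genes did. The part of these shifts in the channel results was not tested.

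Per count of the pan-neuronal gene *elav*, which encodes an RNA-binding protein of neuronal nuclei, *cac* and *para* overlapped between the genotypes. The log2 ratio of *cac* to *elav* was -2.66, -2.49 and -3.09 in GMR>Rh-1G69D libraries, against -2.41, -2.65 and -2.28 in controls (two-sided exact permutation test, p = 0.2, n = 3 each). For *para* it was -4.49, -3.56 and -4.32 in GMR>Rh-1G69D libraries, against -2.84, -4.16 and -3.32 in controls (two-sided exact permutation test, p = 0.2, n = 3 each). For *Shab* it went the other way, with means of -4.79 in GMR>Rh-1G69D libraries and -5.41 in controls, and overlapped (two-sided exact permutation test, p = 0.3, n = 3 each). *elav* itself had a log2 fold change of -0.59 that did not pass (edgeR adjusted p = 0.185), and it was chosen as a divisor after its values were seen. With the gene length correction *elav* came to -0.04 (edgeR adjusted p = 0.902), so its change shrank with that correction, as those of *cac* and *para* did.

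*Sh*, *eag*, *para* and *cac* lie on the X chromosome. The 1893 tested genes of the X were centred on a median of -0.002, and 4.17% of them fell, against 2.4% to 4.23% on the arms of the other large chromosomes. *roX1*, an RNA of the male dosage compensation complex, averaged 2625 CPM in GMR>Rh-1G69D libraries and 4232 CPM in controls, without overlap (log2 fold change -0.69, edgeR adjusted p = 0.175), and *roX2* averaged 341 CPM in GMR>Rh-1G69D libraries and 284 CPM in controls. Whether the sex of the larvae had a part in the values of the X-linked channel genes was not tested.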

How the data were processed

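RNA of EGFP-tagged eye disc nuclei was sequenced in 3 GMR>Rh-1G69D and 3 control samples, assigned by title and column name. Per the submitters' processing notes and methods, alignment by the authors was to dm6 (STAR 2.6.1d). Reads per gene came from featureCounts of Subread 1.6.3, and the deposited raw counts are unnormalized. The annotation release and strand setting are not given in the sources used here. The authors also deposited normalized counts, a signal equal to the counts divided by 1 size factor per sample, and FPKM. Exonic length was taken from the ratio of counts to the deposited FPKM, and gene span from Ensembl's dm6 annotation, to which 17330 of 17433 genes were matched.

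The counts were compared in R 4.3.3 with edgeR 4.0.16 (filterByExpr, TMM, quasi-likelihood F test, Benjamini-Hochberg adjustment over 11818 genes, threshold 0.05). Standard errors are the log2 fold change over the square root of F. Precision is limited by the depth of 21773452 to 30884519 counts and by 3 samples per genotype, where the smallest exact two-sided permutation p is 0.1. The gene length correction subtracted a lowess fit (span 0.5) of each library's log2 deviation. Alternatives were DESeq2 1.42.0, RLE, other filters, robust dispersion, a replicate block, length and span corrections, limma 3.58.1 on the deposited normalized counts (pseudocount 1) and on FPKM (pseudocounts 1 and 0.1), and each library left out. The pipeline was tested on simulated data.

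The members and lists were chosen with earlier results of these data known. Named genes are the 10 members, genes of the related list that passed or were among its 3 most abundant in controls (FPKM), and the 5 genes most like the members' mean profile. *NaCP60E*, *Ca-alpha1D*, *elav* and other genes outside this rule were chosen after their values were seen. Figures were drawn with matplotlib 3.10.9.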

Additional observations from a re-analysis of the deposited data

How the results depend on the processing

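All alternatives gave the 10 channel genes a median below 0, but few calls held. The count of channel genes that fell (1 as reported) was 4 with DESeq2, 2 without a filter, 2 with at least 10 counts in every sample, 2 with the replicate block, and 0 with RLE normalization, with the gene length correction, with the gene span correction, with the replicate block and gene length correction together, and with limma on FPKM (pseudocounts 1 and 0.1). Leaving out 1 library gave 0 to 6, the highest without control replicate 3. The count of related genes that fell (6) was 10 with DESeq2, 3 with the length correction, 2 with the span correction, 2 with block and length correction together, 0 with limma on FPKM at both pseudocounts, and 0 to 11 with 1 library left out. With the length correction 1 of the related genes was higher. Of all tested genes 3.72% fell in the main fit, 8.47% with DESeq2, 3.42% with the length correction and 3.14% with the span correction. Without control replicate 3 it was 9.82% of the genes then tested. Over all genes the count in either direction (586) was 1426 with DESeq2, 573 with RLE, 731 without a filter and 761 with at least 10 counts in every sample. It was 543 with the length correction, 515 with the span correction and 566 with block and length correction. With limma on FPKM it was 403 (pseudocount 1) and 357 (pseudocount 0.1), and it was 181 to 2504 with 1 library left out. The members' median (-0.69) was -0.40 with the length correction, -0.30 with the span correction, -0.39 with block and length correction, -0.48 and -0.57 with limma on FPKM (pseudocounts 1 and 0.1), and -0.45 without control replicate 1, the highest library for 8 of the 10 genes (-0.82 to -0.45 with 1 library left out). *Shab* (0.06) changed sign without control replicate 1 (-0.07), control replicate 3 (-0.02) or GMR>Rh-1G69D replicate 2 (-0.10). With 1 library left out *Shab* ranged from -0.10 to 0.31 and *slo* from -0.43 to 0.14. *slo* (-0.20) changed sign with the length correction (0.33), the span correction (0.34), block and length correction (0.34) and without control replicate 1 (0.14). Of the 180 values of single channel genes under an alternative, 149 kept direction and side of the threshold. Only *cac* had a call to lose, so this count says little about the size of a change. *Sh*, for example, counts as kept with the length correction, where it went from -0.93 to -0.14. The main fit did not pair samples by replicate number. Deviations of same-numbered samples correlated at -0.002, 0.074 and 0.162 for replicates 1, 2 and 3. The values of replicates 2 and 3 were the highest of all pairs of samples across the genotypes, and replicate 1 did not correlate best with its own number. These low values cannot settle whether the samples were paired. The block moved the count over all genes to 734 and brought *eag* past the threshold (adjusted p = 0.0415 from edgeR's test). Apart from the corrections, whose construction removes a length trend, the cause of these differences was not tested.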
